A study of Rattus norvegicus with 6 samples.

Results

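Fragments of the nuclear valine tRNAs were described in small-RNA libraries of AR42J, a long-used line of rat exocrine pancreas cells. A read sequence was a member when at least 1 of its alignments was to a mature tRNA and all such alignments were to nuclear tRNAs with the anticodons AAC, CAC or TAC of valine. This rule took 2888 of 67949 distinct tRNA read sequences and 80503 of 1671615 tRNA reads. A further 185 sequences with 1709 reads matched a valine tRNA and a tRNA of another amino acid equally well and were left out. Of the members, 258 sequences were seen in all 6 libraries and 1476 had a single read in all.

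The 6 libraries formed 2 groups of 3. The untreated group was AR42J cells in F12K medium with fetal bovine serum, and the taurocholate group was the same line given sodium taurocholate, a bile salt, at 200 µM for 30 min. No genotype, transgene or other agent separated the groups, and both rested on 1 cell line. The labels do not say whether the replicates were separate cultures, so each p-value covers library-to-library spread that could be purely technical. Before ligation the RNA of both groups had been freed of attached amino acids and of cyclic phosphates, phosphorylated at its 5′ ends and demethylated at m1A and m3C. The libraries held 193750, 348451 and 229717 tRNA reads without and 338310, 254998 and 306389 with taurocholate, of 16 to 51 nt. Among the miRNA reads, mir-148a, abundant in the pancreas, gave 284614 to 422852 CPM (counts scaled to the library's miRNA total), while the acinar markers mir-216a and mir-217 stayed at or under 0.502 and 0.598 and mir-375, an islet miRNA, between 2.51 and 77.5. With mir-216a and mir-217 near 0, the acinar label has support from mir-148a alone among these markers. The liver miRNA mir-122 lay between 6.88 and 26.7, the blood and immune miRNAs mir-142, mir-451 and mir-223 between 1867 and 3431, 32.5 and 1148, and 0.25 and 4.66, and the stromal miRNA mir-143 between 9709 and 13463.

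A tRNA carries an amino acid on its 3′ terminal CCA and reads codons with the anticodon. Ribonucleases, angiogenin the best known among them, can cut tRNAs in the anticodon loop under stress and leave a 5′ and a 3′ piece, together called tiRNAs, and cuts near the D or T loop leave shorter fragments. In tRNAs with A at the first anticodon base, that A is commonly deaminated to inosine, which reverse transcriptase reads as G. Fragments are called here tRF-5 (starting within 3 nt of the 5′ end, up to 30 nt), tiRNA-5 (the same start, 31 nt or more), tRF-3 and tiRNA-3 (ending within 3 nt of the 3′ end, with the same lengths) and i-tRF (neither end).

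The reads matched 17 mature valine tRNAs, whose names place them on chromosomes 1 and 6 (ValTAC) and 2, 3, 5, 10, 13 and 17 (ValAAC and ValCAC). No genome build is given in the sources used here, so no coordinates are printed. Positions are counted from 1 at the first base of the mature tRNA. By base pairing the anticodon loop spans positions 32 to 38 with the anticodon at 34 to 36, the D loop 14 to 21, the T loop 54 to 60 and the CCA 74 to 76. The commonest ValCAC and ValAAC tRNAs differ at 1 of 76 positions, and either differs from ValTAC at 17. Reads that do not reach the anticodon therefore often match both, and such reads form a group called ValAAC/CAC here. The commonest ValCAC and ValAAC tRNAs do not differ in their first 33 bases. Reads that end by base 33 and count as ValCAC or ValAAC match other tRNAs of that anticodon.

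The longest reads carry the anticodon, in capitals, and show what separates the members. The third is the read that differs by 1 base from both ValAAC and ValCAC.
ValCAC 1-51: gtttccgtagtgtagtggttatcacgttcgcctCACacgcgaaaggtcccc
ValAAC 1-51: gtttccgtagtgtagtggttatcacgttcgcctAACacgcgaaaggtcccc
ValAAC/CAC 1-51, G at 34: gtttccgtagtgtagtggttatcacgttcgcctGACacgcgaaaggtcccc
ValTAC 1-51: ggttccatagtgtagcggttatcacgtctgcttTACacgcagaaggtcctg

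The 5′ fragments on which the end positions turn are given next, with the last base in capitals.
ValAAC/CAC 1-23: gtttccgtagtgtagtggttatC
ValAAC/CAC 1-31: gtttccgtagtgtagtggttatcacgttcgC
ValAAC/CAC 1-32: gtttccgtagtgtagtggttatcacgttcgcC
ValAAC/CAC 1-33: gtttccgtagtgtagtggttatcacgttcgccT

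The 3′ fragments show where ValAAC/CAC and ValTAC reads begin, with what was read of the terminal CCA in capitals. The ValAAC 60-76 sequence matches 1 ValAAC tRNA only.
ValAAC/CAC 60-76: accgggcggaaacaCCA
ValAAC/CAC 61-76: ccgggcggaaacaCCA
ValAAC/CAC 60-75: accgggcggaaacaCC
ValAAC 60-76: accgggcgggaacaCCA
ValTAC 61-76: cccagtggaaccaCCA
ValTAC 55-76: tcgagccccagtggaaccaCCA
ValTAC 36-76: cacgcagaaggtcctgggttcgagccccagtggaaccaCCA

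Valine fragments made up 4.05%, 4.91% and 4.60% of tRNA reads without and 5.55%, 4.75% and 4.60% with taurocholate. The groups overlapped (difference 0.452 percentage points, two-sided exact permutation p = 0.4). With 3 libraries against 3 that test cannot give a p under 0.1, so no measure of this kind could pass 0.05. In bulk libraries, fewer cells that hold a fragment and less of it per cell cannot be told apart.

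By anticodon, 67.8% of valine reads were ValAAC/CAC, 12.2% were specific to ValTAC, 10.6% to ValAAC and 9.48% to ValCAC. The other 5 reads matched all 3. Levels are given in CPM, counts scaled to the library's total of tRNA reads, and fold changes are those of edgeR after TMM scaling, so a log2 fold change need not equal the ratio of CPM values. ValCAC stood at 2601, 4781 and 3321 CPM without and 7325, 4478 and 3518 with taurocholate (log2 fold change 0.64, SE 0.34, edgeR quasi-likelihood Benjamini-Hochberg adjusted p = 0.569). One taurocholate library was high and the others lay within the untreated range. ValTAC stood at 3990, 6342 and 4662 against 8575, 5251 and 4932 CPM (0.45, SE 0.29, adjusted p = 0.686 by edgeR), with the same library high. ValAAC/CAC ranged from 29290 to 33158 without and from 32929 to 33596 CPM with taurocholate (0.19, SE 0.13, adjusted p = 0.686 by edgeR). ValAAC ranged from 4583 to 5424 and from 4478 to 6039 CPM (0.15, SE 0.20, adjusted p = 0.807 by edgeR). No valine set passed the adjusted threshold of 0.05 among 122 anticodon sets tested (0% called), none had an unadjusted edgeR p under 0.05 (4.92% of all sets, 0.82% higher and 4.1% lower), and DESeq2 called none and gave 1 valine set an unadjusted p under 0.05, as it did 8 of all 122. All 4 sets had a positive log2 fold change by edgeR, as did 39.3% of all sets.

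By class, tRF-3 held 57.1% ± 0.924 (SD, n = 3) of valine reads without and 52.4% ± 4.13 with taurocholate. The class tiRNA-5 held 21.3% ± 4.95 and 25.6% ± 7.13, tRF-5 18.2% ± 3.86 and 18.8% ± 7.58, i-tRF 3.16% ± 0.836 and 2.90% ± 0.733, and tiRNA-3 0.304% ± 0.0897 and 0.225% ± 0.0489. The share of valine reads reaching the 3′ end was 57.1%, 56.5% and 58.5% without and 53.9%, 48.1% and 56.0% with taurocholate, so the groups did not overlap (exact permutation p = 0.1, the smallest possible, 0.2 after Benjamini-Hochberg adjustment over 16 measures). Without reads of 51 nt the difference was -0.933 percentage points and the groups overlapped (exact permutation p = 0.8). The separation thus depended on reads at the 51 nt limit, whose 3′ end was not seen.

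**Figure D1:**
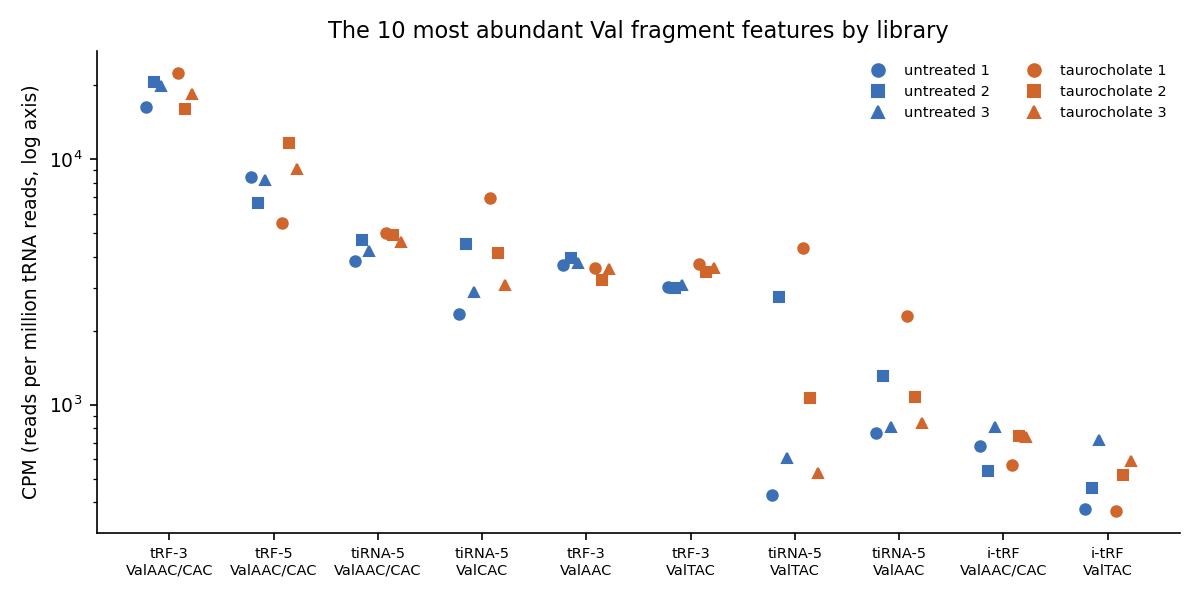
Level of the 10 most abundant valine fragment features in each library, in CPM on a log axis; circles, squares and triangles are replicates 1, 2 and 3 of the untreated (blue) and taurocholate (orange) groups. ValTAC tRF-3 is higher in every taurocholate library than in every untreated one, while tiRNA-5 of ValTAC runs from 428 to 4336 CPM with untreated replicate 2 and taurocholate replicate 1 high.

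Of 21 valine class-by-anticodon features 16 passed the count filter and were tested, and the other 5 had 1 to 7 reads in all. None passed an adjusted p of 0.05 by edgeR or by DESeq2, among 237 features of all tRNAs of which edgeR called 0%. By edgeR 2 of the 16 had an unadjusted p under 0.05, both higher with taurocholate, against 9.7% of all features tested (5.06% higher and 4.64% lower). By DESeq2 1 of the 16 did, against 17 of all 237, of which 1 passed the adjusted threshold. The log2 fold change was positive in 15 of 16 with a median of 0.27, against 52.7% positive and a median of 0.02 over all 237. Scaling by library totals moved the median of all features to -0.13 and left 12 of 16 valine features positive with a median of 0.12. Without untreated replicate 1, 11 of 16 were positive, and without taurocholate replicate 1, 12 of 16. The counts share libraries and anticodons, and nothing particular to valine is read from them.

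Among these, tRF-3 of ValTAC had the smallest p. Its level was 3009, 2982 and 3069 CPM without and 3730, 3482 and 3613 CPM with taurocholate. Every taurocholate library was above every untreated one, and the spread within a group was small (log2 fold change 0.41, SE 0.15, edgeR adjusted p = 0.460). Groups that did not overlap with taurocholate higher were seen for 3.8% of all features, and with taurocholate lower for 13.9%. Over 15 other settings its log2 fold change stayed between 0.26 and 0.51. The tRF-3 of ValAAC, made of reads such as ValAAC 60-76 above, stood at 3716, 3949 and 3770 against 3588, 3231 and 3558 CPM and was lower in each taurocholate library on that scale, with a log2 fold change after TMM scaling of 0.01 (SE 0.16, edgeR adjusted p = 0.977) that was -0.14 by library totals.

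Set against each other within a library, these 2 short 3′ fragments need no scaling. ValTAC made up 44.7%, 43.02% and 44.9% of ValTAC and ValAAC tRF-3 reads without and 50.97%, 51.9% and 50.4% with taurocholate. The groups did not overlap, and the difference of the means was 6.86 percentage points (exact permutation p = 0.1, adjusted p = 0.2). Among error-free reads the shares were 44.3%, 43.1% and 43.8% against 51.5%, 51.5% and 50.4%. Leaving out any 1 library gave differences of 6.27 to 7.21 points. With each distinct sequence counted once the groups overlapped (3.37 points, exact permutation p = 0.3). The larger tRF-3 of ValAAC/CAC, with 3157, 7203 and 4564 reads against 7619, 4083 and 5663, is not in this measure. ValTAC tRF-3 had 583, 1039 and 705 reads against 1262, 888 and 1107. Set against ValAAC/CAC by these counts, ValTAC gave groups that overlapped, so the separation was seen with ValAAC as partner. The measure of ValTAC and ValAAC was added after the values of its parts had been seen, so its separation is a description. Both parts hold reads with and without the last base. ValAAC 60-75 had 1061 ± 42.5 CPM without and 733 ± 73.9 with taurocholate (SD, n = 3). ValAAC 60-76 had 2108 ± 106 and 2171 ± 237 CPM, and ValTAC 55-75 had 118 ± 24.4 and 135 ± 44.6. Since ValTAC 61-76 has 16 nt, the shortest length present, its form without the last base cannot be counted. How much of the difference comes from last bases was not tested.

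The largest feature, tRF-3 of ValAAC/CAC, stood at 16294, 20672 and 19868 against 22521, 16012 and 18483 CPM (0.16, SE 0.19, edgeR adjusted p = 0.782), without any order of the groups. For tRF-5 of ValAAC/CAC the values were 8480, 6624 and 8228 against 5504, 11639 and 9096 CPM (0.32, SE 0.27, edgeR adjusted p = 0.640), with both the lowest and the highest value in treated libraries. The tRF-5 of ValCAC, a low feature, had 139, 112 and 174 against 157, 173 and 219 CPM (0.52, SE 0.22, edgeR adjusted p = 0.460). The smallest log2 fold change was that of tiRNA-3 of ValTAC, 128.7 ± 38.7 against 109.3 ± 15.5 CPM (SD, n = 3; -0.09, SE 0.26, edgeR adjusted p = 0.920).

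The class tiRNA-5 held most of the 51 nt reads. For tiRNA-5 of ValTAC the values were 428, 2744 and 609 CPM without and 4336, 1063 and 525 CPM with taurocholate (0.79, SE 0.94, edgeR adjusted p = 0.782). Untreated replicate 2 and taurocholate replicate 1 were high and the other libraries low. Reads of 51 nt made up 68.7% to 97.3% of this feature, and without them it stood at 136, 124 and 146 against 132, 116 and 139 CPM (0.07). Few reads remained. The feature had 83, 956 and 140 reads without and 1467, 271 and 161 with taurocholate. Of these, 57, 917 and 107 and then 1428, 243 and 119 had 51 nt. Levels of the ValTAC tiRNA-5 reads with a seen 3′ end were thus similar among libraries, at low counts, and the groups overlapped.

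For tiRNA-5 of ValCAC the values were 2348, 4511 and 2882 against 6982, 4165 and 3075 CPM (0.70, SE 0.39, edgeR adjusted p = 0.507). Without reads of 51 nt they were 2105, 2224 and 2447 against 1820, 2901 and 2625 CPM (0.26), and the library highest before was then the lowest. The tiRNA-5 of ValAAC/CAC stood at 3835, 4669 and 4236 against 5001, 4910 and 4609 CPM (0.34, SE 0.17, edgeR adjusted p = 0.463) and at 0.12 on the log2 scale without 51 nt reads. That of ValAAC was 0.69 (SE 0.44, edgeR adjusted p = 0.558) and 0.12 without them.

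Reads of 51 nt were 1.79%, 14.1% and 2.90% of valine reads without and 24.99%, 7.31% and 2.77% with taurocholate. In other mature tRNAs they were 1.22%, 9.96% and 1.64% against 12.1%, 5.61% and 1.495%, below the valine share in each of the 6 libraries and high in the same 2. The fragment 1-51 of ValCAC followed, with 268, 2497 and 474 against 5377, 1412 and 486 CPM (1.43, SE 0.96, edgeR adjusted p = 0.476). Without taurocholate replicate 1 its log2 fold change was -0.15, and without untreated replicate 2 it was 3.03. For 1-51 of ValTAC, with 289, 2606 and 457 against 4188, 945 and 372 CPM, the log2 fold change was 0.99 (SE 0.96, edgeR adjusted p = 0.627), -0.73 without taurocholate replicate 1 and 2.62 without untreated replicate 2. Size selection, the whole tRNA and a true long fragment cannot be told apart for such reads.

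**Figure D2:**
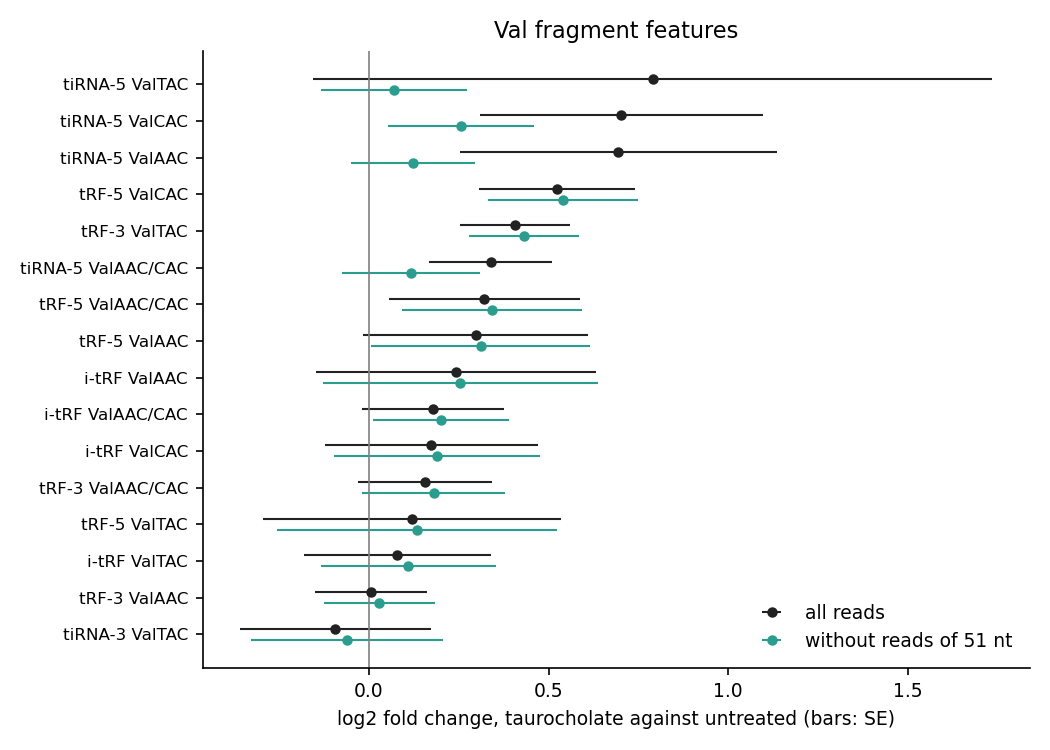
Log2 fold change (taurocholate against untreated, edgeR) of the 16 tested valine features, with bars of 1 SE, for all reads (black) and without reads of 51 nt (green). The 4 tiRNA-5 features have a median of 0.70 with all reads and 0.12 without 51 nt reads, and tRF-3 of ValTAC stays near 0.4.

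Other amino acids whose 5′ tiRNAs are often described under stress were set beside valine. The 10 tiRNA-5 features of Gly, Glu, His, Asp and Lys had a median log2 fold change of 0.28 with 7 positive, and all 24 tiRNA-5 features a median of 0.28 with 14 positive. Without 51 nt reads the medians were -0.25 with 3 of 10 positive and -0.28 with 8 of 23 positive, while valine had 0.12 with 4 of 4 positive. The valine signs depend on TMM scaling. In CPM without 51 nt reads, the treated mean was higher for ValCAC but not for ValAAC, ValAAC/CAC or ValTAC. The ValAAC/CAC feature, for example, stood at 3818, 4054 and 4089 against 2900, 4495 and 4421 CPM. These are descriptions of counts and medians, and the valine features share reads of 1 tRNA family.

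Most valine 5′ reads ended at a few positions. Among reads under 51 nt from ValAAC and ValCAC the commonest read end was base 23, in the 3′ strand of the D stem, and the next was base 32, the first base of the anticodon loop. In taurocholate replicate 1 the 3256 reads of 51 nt outnumbered the 1290 ending at base 23. The fragment 1-23 of ValAAC/CAC stood at 5590, 4580 and 5132 against 3807, 9079 and 6417 CPM (0.49, SE 0.28, edgeR adjusted p = 0.407), with taurocholate replicate 1 low and the other treated libraries high. It made up 70.2%, 72.05% and 67.0% of ValAAC and ValCAC 5′ reads up to 30 nt without and 70.2%, 81.0% and 73.2% with taurocholate, which overlap (exact permutation p = 0.3). The neighbours 1-24 and 1-29 had 598 ± 157 against 498 ± 191 CPM (-0.09) and 284 ± 110 against 299 ± 111 CPM (0.22; SD, n = 3). Of ValAAC and ValCAC reads ending at 24, only 21, 37 and 24 of 151, 178 and 117 were error-free without taurocholate. With taurocholate 23, 45 and 34 of 115, 181 and 136 were, so the end at 24 is less certain. At base 32 most reads also differed from the reference. Error-free there were 142, 292 and 187 of 541, 858 and 641 without taurocholate. With it 231, 369 and 359 of 704, 1091 and 1064 were, so that end is less certain too.

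At the anticodon loop the 3′ ends of the 5′ fragments were compared between the groups. Among ValAAC and ValCAC 5′ reads ending at base 32 or 33, those ending at 33, just before the anticodon, made up 35.98%, 35% and 32.7% without and 20.4%, 16.7% and 24.7% with taurocholate. The groups did not overlap, and the difference was -14 percentage points (exact permutation p = 0.1, adjusted p = 0.2). These shares rest on 845, 1320 and 953 against 884, 1309 and 1413 reads, and their 95% Wilson intervals are at most 6.46 points wide. Such intervals and floors cover counting error only, since reads without molecular identifiers are not independent molecules. Among error-free reads the shares were 47.4%, 36.5% and 37.0% against 21.96%, 19.4% and 26.3%. They rest on fewer reads, 270, 460 and 297 against 296, 458 and 487. Leaving out any 1 library gave differences from -16.1 to -12.0 points. With each sequence counted once the difference was -7.85 points and the groups overlapped (exact permutation p = 0.4). The share was added to the planned measures after end positions had been seen.

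Single fragments ending on either side of this position were tested next, and none passed the adjusted threshold. Of all cut-site features of all tRNAs, 7.73% had groups that did not overlap with taurocholate higher and 13.5% with taurocholate lower. The fragment 1-33 of ValAAC/CAC stood at 1079, 930 and 1006 CPM without and 381, 565 and 803 CPM with taurocholate, lower in each treated library (-0.65, SE 0.23, edgeR adjusted p = 0.247). The fragment 1-32 stood at 1837, 1708 and 1837 against 1395, 2769 and 2363 CPM, with the groups overlapping (0.43, SE 0.24, edgeR adjusted p = 0.401). For ValCAC, 1-33 stood at 346, 321 and 270 against 121, 204 and 290 CPM and the groups overlapped (-0.48, SE 0.28, edgeR adjusted p = 0.414). One base shorter than 1-32, the fragment 1-31 of ValAAC/CAC had 315, 284 and 287 against 231, 408 and 470 CPM, with taurocholate replicate 1 the lowest of all and the groups overlapping (0.46, SE 0.25, edgeR adjusted p = 0.377). The 1-31 of ValCAC had 268, 238 and 252 against 296, 565 and 483 CPM and was higher in each treated library (0.98, SE 0.25, edgeR adjusted p = 0.197). The commonest ValCAC 1-32 read matches 1 ValCAC tRNA only. ValCAC reads ending by base 33 do not match the commonest ValCAC tRNA, whose reads count as ValAAC/CAC. Of ValAAC and ValCAC reads ending at 31, only 29, 46 and 36 of 132, 207 and 137 were error-free without taurocholate. With taurocholate 56, 61 and 66 of 192, 255 and 322 were. The 1-33 of ValCAC and 1-31 of ValAAC/CAC, like 61-76 and 36-76 of ValTAC below, were named after their values had been seen. Fragments ending at base 35, inside the anticodon, were less abundant. The fragment 1-35 of ValCAC had 186, 224 and 283 against 127, 70.6 and 127 CPM (-0.89, SE 0.32, edgeR adjusted p = 0.243), and 1-35 of ValAAC/CAC had 59.2 ± 19.99 against 28.5 ± 20.5 CPM (SD, n = 3; -0.93, SE 0.46, edgeR adjusted p = 0.346). Over 12 other settings 1-35 of ValCAC ran from -1.21 to -0.38. Of ValAAC and ValCAC reads ending at 35, only 6, 19 and 22 of 45, 105 and 83 were error-free without taurocholate. With taurocholate 13, 6 and 20 of 53, 25 and 59 were, so most reads differed from the reference.

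**Figure D3:**
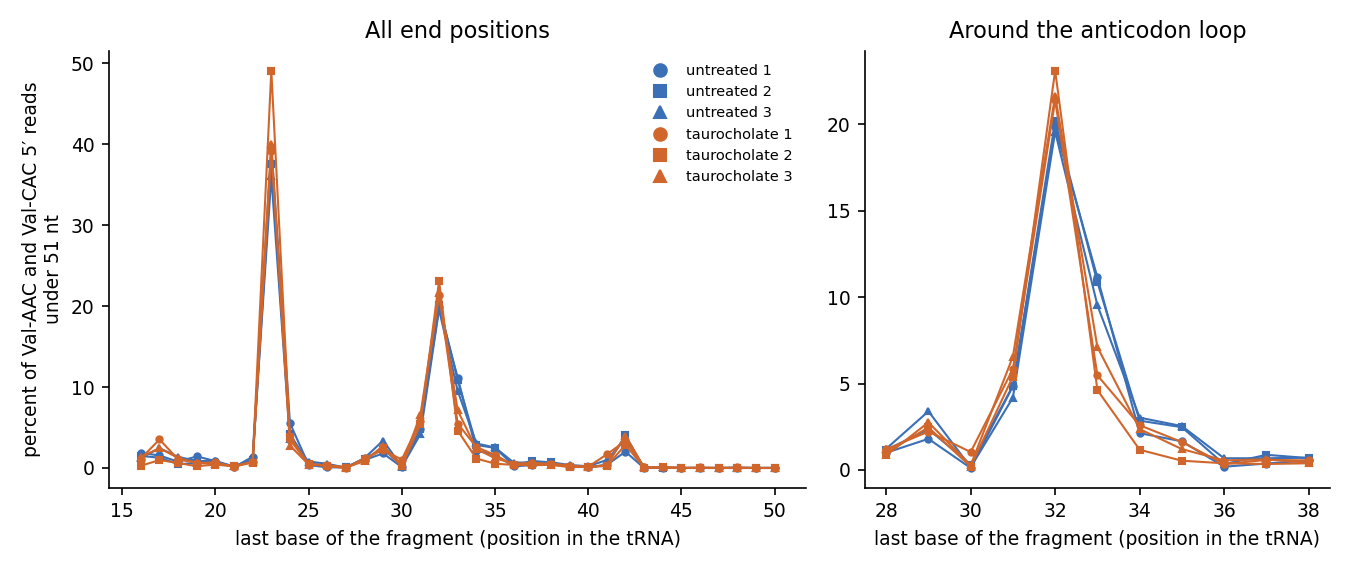
Percent of ValAAC and ValCAC 5′ reads under 51 nt by the position of their last base, 1 line per library (blue untreated, orange taurocholate); the right panel enlarges the anticodon loop region. Peaks stand at base 23 and base 32, and at base 33 the 3 untreated lines lie above the 3 taurocholate lines.

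By the planned measure, the mean length of valine 5′ reads of 26 to 40 nt was 32.14, 32.22 and 32.20 nt without and 32.06, 31.87 and 32.01 nt with taurocholate (-0.210 nt, exact permutation p = 0.1, adjusted p = 0.2). The groups did not overlap, but among error-free reads they did (-0.102 nt, exact permutation p = 0.2), and also with each sequence counted once (-0.0443 nt, exact permutation p = 0.7). The 5′ reads of other tRNAs were also shorter, at 31.51, 31.67 and 31.69 against 31.15, 31.04 and 31.41 nt (-0.420 nt, exact permutation p = 0.1). Valine minus other tRNAs moved by 0.210 nt, with the groups overlapping (exact permutation p = 0.2). For the share ending at 33 of those at 32 or 33, other tRNAs had 60.9%, 61.3% and 58.5% against 56.3%, 57.1% and 54.5%, or -4.25 points. The share of ValAAC and ValCAC minus that of other tRNAs was -24.9, -26.3 and -25.7 points without taurocholate. With it the values were -35.9, -40.4 and -29.8, which do not overlap (difference -9.75 points, exact permutation p = 0.1). That difference was -13.4 points among error-free reads and -5.86 with each sequence counted once, where the groups overlapped (exact permutation p = 0.4). Other tRNAs are a mix of bases and loop positions at 32 and 33, so this compares ValAAC and ValCAC with that mix.

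At the other end of the molecule, the starts of the 3′ fragments differed between anticodons more than between groups. Of ValAAC and ValCAC 3′ reads ending at base 76, 68.3% to 69.9% began at base 60, 14.4% to 16.8% at 61 and 12.1% to 13.5% at 59, at the border of the T loop and T stem. Only 1.10% to 1.97% began at 55. Of ValTAC reads 38.3% to 53.1% began at 61 and 25.6% to 40.4% at 55, inside the T loop. A read from 61 to 76 has 16 nt, the shortest length present, so later starts cannot be seen. All shares here are of reads starting at 61 or before, and 61 need not be a cut site. Among the 3′ reads up to 30 nt the share beginning at 55 was higher in ValTAC in 6 of 6 libraries, by 32.8 percentage points ± 4.86 (SD, n = 6; exact sign-flip p = 0.03125, the smallest that 6 libraries allow). ValTAC fragments from 55 span position 58, which in most tRNAs carries the methylated base m1A that the library protocol removes, whereas reads starting at 59 to 61 begin after it. The part of that base in the result was not tested.

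**Figure D4:**
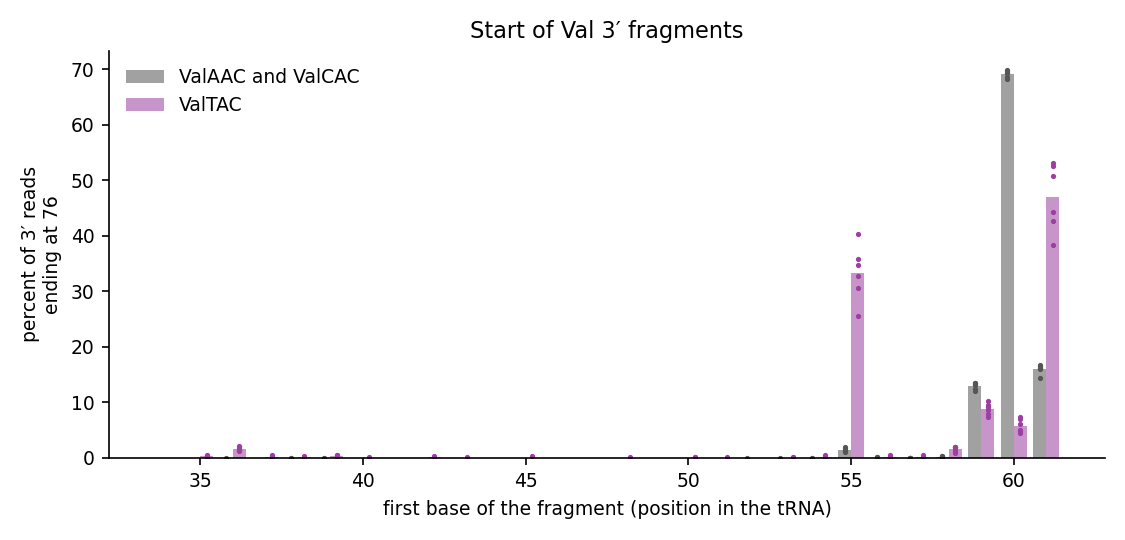
Percent of 3′ reads ending at base 76 by the position of their first base, for ValAAC and ValCAC (grey) and ValTAC (purple); bars are means over the 6 libraries and points are single libraries. ValAAC and ValCAC reads gather at base 60, and ValTAC reads divide between bases 61 and 55. Base 61 is the last start that can be seen, since the shortest reads have 16 nt.

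Both of the main ValTAC starts were measured in every library. The fragment 55-76 of ValTAC stood at 877, 1002 and 762 against 1200, 1365 and 1224 CPM, higher in each treated library (0.70, SE 0.24, edgeR adjusted p = 0.225), and 61-76 at 1512, 1277 and 1580 against 1865, 1294 and 1459 CPM (0.29, SE 0.26, edgeR adjusted p = 0.590). The fragment 60-76 of ValTAC, with 145, 178 and 135 against 177, 235 and 251 CPM, overlapped by its lowest treated value (0.68, SE 0.26, edgeR adjusted p = 0.259). Of ValAAC/CAC, 60-76 stood at 9265, 11339 and 11088 against 13798, 9188 and 10588 CPM (0.29, SE 0.27, edgeR adjusted p = 0.610), and 61-76 had a log2 fold change of 0.21 (SE 0.28). The share of ValTAC short 3′ reads beginning at 55 was 31.3%, 36.2% and 26.6% against 33.4%, 41.6% and 36.7%, and overlapped (exact permutation p = 0.2).

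In total 774 valine cut-site features, reads with the same anticodon set and the same first and last base, were seen, and 74 passed the filter. None had an adjusted p under 0.05 by edgeR or DESeq2, against 0.0765% of 1307 features of all tRNAs by edgeR. By edgeR 6 of 74 had an unadjusted p under 0.05, where 16% of all features did (9.18% higher and 6.81% lower), and by DESeq2 4 did, where 124 of 1307 did. By both tools the valine share was below that of all tRNAs. The 4 higher and 2 lower ones are named above, except 55-76 of ValAAC/CAC, named after its values were seen, with 202 ± 36.6 against 292 ± 46.6 CPM (SD, n = 3; 0.69, SE 0.26, edgeR adjusted p = 0.259). Without the count filter 3 valine fragments were called, all of them 1-51 reads that were highest in the same 2 libraries, among 33 called of 14055 features of all tRNAs.

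The terminal A of the CCA was missing from a smaller share of valine 3′ reads in each treated library. Of valine 3′ reads ending at base 75 or 76, those ending at 75 made up 17.4%, 17.8% and 18.4% without and 9.79%, 15.5% and 14.01% with taurocholate (-4.78 percentage points, exact permutation p = 0.1, adjusted p = 0.2). In taurocholate replicate 1, 20.02% of valine reads had a mismatched G as their last base, against 1.27% to 7.95% in the other libraries, which leaves a read end uncertain by 1 nt. Among error-free reads, the shares were 17.5%, 16.8% and 16.9% against 12.2%, 14.1% and 12.9%, and without taurocholate replicate 1 the difference among all reads was -3.13 points. With each sequence counted once it was -1.88 points and the groups overlapped (exact permutation p = 0.3). Other tRNAs had 29.1%, 24.98% and 24.5% against 18.4%, 22.02% and 20.9%, or -5.76 points, and valine minus other tRNAs differed between the groups by 0.983 points (exact permutation p = 0.8). The fragment 60-75 of ValAAC/CAC, the commonest of the kind, stood at 2292, 3025 and 2995 against 1708, 2031 and 2102 CPM and was lower in each treated library (-0.34, SE 0.22, edgeR adjusted p = 0.466).

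**Figure D5:**
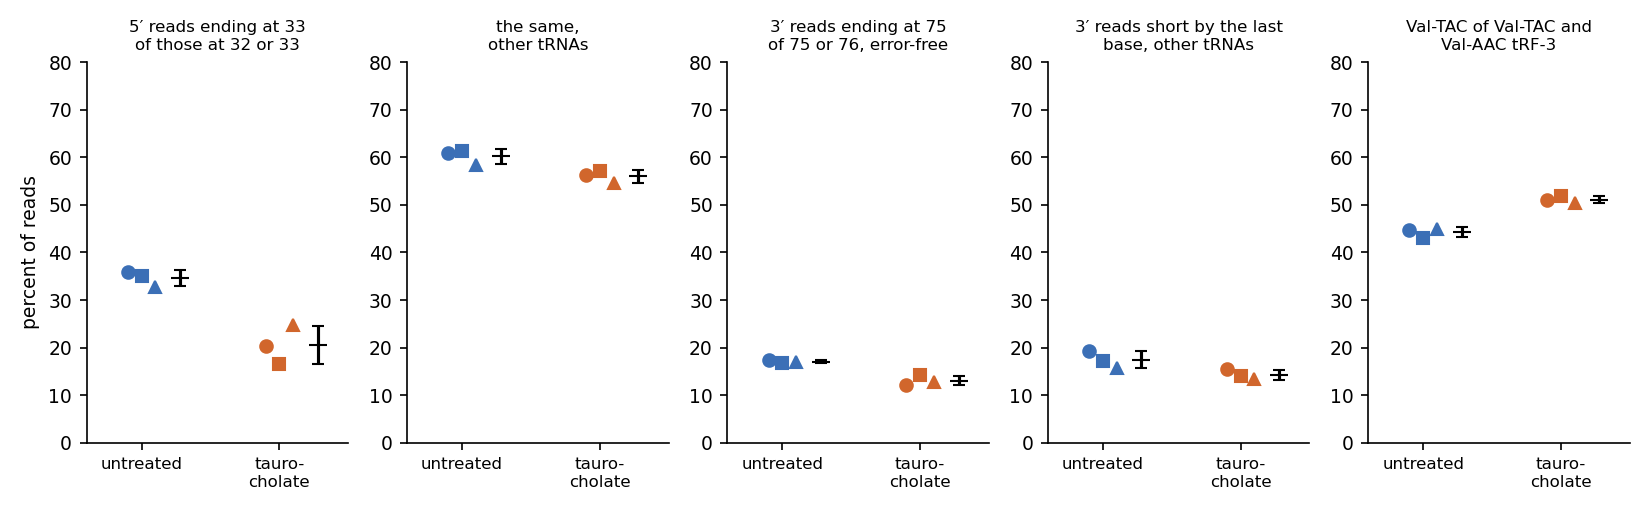
Shares per library in percent of reads, with the group mean and SD beside the points (n = 3; symbols as for the plot of levels): 5′ reads ending at base 33 for ValAAC and ValCAC and for other tRNAs, error-free 3′ reads lacking the last base for valine and for other tRNAs, and ValTAC among ValTAC and ValAAC tRF-3. In each panel the groups do not overlap, and the difference at base 33 is -14 points for ValAAC and ValCAC and -4.25 for other tRNAs.

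Long 3′ fragments came almost wholly from ValTAC. Reads of 31 nt or more were 2.47% to 5.24% of ValTAC 3′ reads and 0% to 0.0736% of ValAAC and ValCAC 3′ reads. The difference was 3.49 percentage points ± 0.970 (SD, n = 6), in the same direction in 6 of 6 libraries (exact sign-flip p = 0.03125). No such ValAAC or ValCAC read was found among 8836 in taurocholate replicate 1 or among 4907 in replicate 2, which allows shares of up to 0.0340% and 0.0611%. The ValTAC read 36-76 above, which starts at the last anticodon base, had 52.3 ± 10.0 CPM without and 52.0 ± 9.58 with taurocholate (SD, n = 3). Both comparisons of anticodons were made after the values had been seen.

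Internal fragments were few. The commonest, 5-23 of ValAAC/CAC, shares its 3′ end with the 1-23 fragment and stood at 315, 195 and 283 against 192, 494 and 313 CPM (0.50, SE 0.33, edgeR adjusted p = 0.468). The commonest of ValTAC began at base 16 in the D loop and ended with the anticodon, with 98.1, 118 and 95.8 against 56.2, 161 and 166 CPM (0.40, SE 0.37, edgeR adjusted p = 0.600).
ValTAC 16-36: cggttatcacgtctgcttTAC
In both fragments taurocholate replicate 1 was the lowest library, as it was for tRF-5 of ValAAC/CAC. A shorter one, 16-31 of ValTAC, had 59.7 ± 28.5 against 62.7 ± 15.1 CPM (SD, n = 3).

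Reads of ValAAC and ValCAC that passed position 34 showed the state of the first anticodon base. Over all libraries 4419 such reads had C at 34, as ValCAC does, 3728 had G and 107 had A, the base of the ValAAC genes. The substitution A34G, the reference base first, was the commonest internal difference in valine reads, with 3713 reads. G made up 99.2%, 98.4% and 97.8% of A and G reads without and 96.4%, 97.4% and 96.7% with taurocholate. The groups did not overlap, and the difference was -1.61 percentage points (exact permutation p = 0.1, adjusted p = 0.2), resting on 1 to 60 A reads per library. Without reads of 51 nt the shares were 99.0%, 98.9% and 98.2% against 93.9%, 97.9% and 96.0%. Since a read with G at 34 differs by 1 base from both references, it counts as ValAAC/CAC unless another base sets it apart. A34G was found in reads of both the ValAAC and the ValAAC/CAC group. In taurocholate replicate 1, 1377 reads of 51 nt had G at 34, while tiRNA-5 of ValAAC/CAC held 835 reads of 51 nt. The ValAAC totals above thus lack the G reads counted as ValAAC/CAC but hold those set apart.

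The other planned measures had groups that overlapped. The share of valine reads from the 5′ end was 39.9%, 41.0% and 37.4% without and 44.0%, 48.8% and 40.5% with taurocholate (exact permutation p = 0.2). Without reads of 51 nt that difference was 1.04 percentage points. Of 5′ reads of at least 31 nt, those ending at bases 32 to 38 made up 74.9%, 38.6% and 67.6% without and 18.8%, 53.5% and 65.3% with taurocholate (exact permutation p = 0.5). Without reads of 51 nt the shares were 83.0%, 80.6% and 79.9% against 73.8%, 77.5% and 75.9%, and the groups did not overlap (-5.42 percentage points, exact permutation p = 0.1). The ValTAC share of anticodon-specific reads was 35.7%, 38.3% and 36.4% against 39.1%, 36.96% and 37.7% (exact permutation p = 0.4). Without reads of 51 nt it was 35.1%, 34.7% and 35.7% against 41.4%, 37.7% and 37.6%, and the groups did not overlap (3.70 points, exact permutation p = 0.1).

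Of the 7 planned measures 2 had groups that did not overlap, and of the 9 added later 6 did. Among the 6 was the share ending at 31 of ValAAC and ValCAC 5′ reads ending at 31 to 33. It was 13.5%, 13.6% and 12.6% against 17.8%, 16.3% and 18.6% (exact permutation p = 0.1). Another was the share of long reads among ValAAC and ValCAC 3′ reads, which rests on 0 to 4 long reads per library. The later ones were chosen after the profiles had been seen, and none of the 16 had an adjusted exact permutation p under 0.2.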

How the data were processed

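Small RNAs were sequenced from AR42J cells, 3 untreated and 3 taurocholate libraries. Novoalign 2.07.11, FastQC and cutadapt are named in the submitters' processing notes, and the build of the genome is not given in the sources used here. Each deposited table lists read sequences with their count and their alignments to mature and precursor tRNAs, with positions, and at most 1 difference per alignment, per the file headers and values; the authors' counts were used as deposited, with no normalization. Each sequence was counted once per library, by class and by the set of anticodons it matched. Counts of all tRNAs were tested with edgeR 4.0.16 (R 4.3.3; TMM, filterByExpr, quasi-likelihood test, Benjamini-Hochberg over all features), with DESeq2 1.42.0 as an alternative. Composition measures were compared with two-sided exact permutation tests over libraries (scipy 1.17.1). The scripts were tested on simulated data. No 2 replicates agreed within sampling noise. Named features were the 6 most abundant valine features and the 2 with the smallest p in each direction, all anticodon totals, and for cut-site features the 3 most abundant per class and the 3 of smallest p either way with a mean of 10 CPM or more. Members, lists and planned measures were chosen with earlier results of these data known, and the 9 further measures and the comparisons with other tRNAs after seeing these values.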

Additional observations from a re-analysis of the deposited data

How the results depend on the processing

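No valine feature, anticodon set or cut site passed the adjusted threshold under any alternative, except that the unfiltered edgeR fit called 3 of 774 valine cut sites (and 33 of 14055 of all tRNAs), all reads 1-51 and among them that of ValCAC (log2 fold change 1.39, adjusted p = 0.00150). Positive cut-site log2 fold changes numbered 345 of 774 without the filter and 25 of 44 among error-free reads, against 44 of 74. Of 239 log2 fold changes of class features under alternatives 216 kept their sign, of 56 of anticodon sets 53, and of 211 of named cut sites 197. For the exceptions the cause was not tested. The tiRNA-5 log2 fold change of ValAAC was -0.23 and of ValTAC -0.068 with reads of 18 to 40 nt only. With an end tolerance of 0 nt the i-tRF of ValAAC/CAC was -0.23 and of ValAAC -0.34. The tRF-3 of ValAAC/CAC was -0.00047 and the tRF-5 of ValTAC -0.070 with error-free reads, and by library totals the latter was -0.029 and the i-tRF of ValTAC -0.076. The tRF-3 of ValAAC was -0.14 by library totals, -0.019 with TMM over tRNA and miRNA reads, -0.16 error-free and -0.061 at 18 to 40 nt. The ValAAC total was -0.072 error-free and -0.044 at 18 to 40 nt. Of the ValAAC/CAC cut sites, 1-24 was 0.27 and 1-29 -0.0080 error-free, and 61-76 was -0.044 by library totals and -0.070 error-free.

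Leaving out 1 library at a time gave log2 fold changes of -0.063 to 0.29 for tRF-3 of ValAAC/CAC, -0.65 to 2.17 for tiRNA-5 of ValTAC, -0.034 to 0.65 for i-tRF of ValAAC, -0.047 to 0.49 for i-tRF of ValCAC, -0.27 to 0.10 for tiRNA-3 of ValTAC, -0.11 to 0.33 for i-tRF of ValTAC, -0.23 to 0.38 for tRF-5 of ValTAC, -0.093 to 0.082 for tRF-3 of ValAAC and -0.010 to 0.26 for the ValAAC total. For cut sites the ranges were -0.48 to 0.10 (1-24 of ValAAC/CAC), -0.039 to 0.49 (1-29), -0.069 to 0.45 (60-76), -0.18 to 0.35 (61-76), -0.15 to 3.03 (1-51 of ValCAC), -0.73 to 2.62 (1-51 of ValTAC) and -0.0033 to 0.60 (16-31 of ValTAC). The share of 5′ reads of at least 31 nt differed by 3.996 points, by -2.55 without 51 nt reads and by -5.24 to 10.0 with a library left out. With each sequence counted once, differences were -0.635 points for the ValTAC share of anticodon-specific reads, -0.176 for 5′ reads ending at 23, 1.42 for long ValTAC 3′ reads and 2.38 for these minus ValAAC and ValCAC. The share lacking the last base, valine minus other tRNAs, was -0.812 among error-free reads and -0.711 to 2.10 with a library left out. Of the 7 planned measures 0 had groups apart among error-free reads, 1 with each sequence counted once and 3 without 51 nt reads, against 2 with all reads.

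With the replicate number as a block, 0 of 16 features were called and 15 were positive, and 43 of 74 cut sites were positive, so no call changed. Same-numbered libraries did not consistently deviate together (correlations of -0.1939, 0.04273 and 0.2885). Pairing by number was thus not seen, but so few libraries cannot exclude it. Depth limits low features: the least abundant tested one, i-tRF of ValAAC, had 5 to 22 reads per library.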

Other observations

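Valine tRNA precursors lay outside the members. Reads found only in them stood at 5997, 5197 and 5894 CPM without and 3080, 4302 and 4236 CPM with taurocholate, lower in each treated library. The trailer fragment (tRF-1), the piece that RNase Z cuts from the 3′ end of a precursor, had of these reads 2039, 1997 and 2029 CPM without and 455, 1569 and 1482 with taurocholate. Taurocholate replicate 1 was far lower than the other treated libraries, and the groups did not overlap. The trailers of ValTAC had a log2 fold change of -0.66 (SE 0.41, edgeR adjusted p = 0.552) and the other precursor reads of ValCAC one of -0.42 (SE 0.22, edgeR adjusted p = 0.494). Of all 122 anticodon sets, mature and precursor, 13.9% had groups that did not overlap with taurocholate lower. Precursor reads of MetCAT were among them (-0.58, SE 0.18), while those of GlyTCC had a positive log2 fold change (0.51, SE 0.38). Nothing particular to valine is read from the precursor values.

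Internal differences other than A34G also recurred in valine reads. T20C, in the D loop, was found in 7.69% to 9.80% of covering reads without and in 4.38% to 9.56% with taurocholate, lowest in taurocholate replicate 1. G67A, in the acceptor stem, was found in 3.39% to 4.65% and in 3.55% to 4.68%. Positions count from 1 at the first base, with the reference base first.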
